A study of Mus musculus with 2 samples.

Results

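CtBP2 is a co-repressor of transcription that senses NAD(H) and has no sequence-specific DNA binding of its own, so that other proteins bring it to chromatin. The results below describe its chromatin immunoprecipitation (ChIP) signal at the promoter windows of Brd2, Ubtf and Zbtb1, beside Actb and Gapdh as reference promoters. These are 5 windows with a summed length of 165 kb, or 825 steps of 200 bp out of 13209569 in the genome. Of these, 564 window steps and 6709847 genome steps held a read in either library. Brd2, Ubtf and Zbtb1 were chosen because they hold regions with some of the highest ChIP read numbers of this library, so their ChIP depth is a description and not a finding. Actb and Gapdh were named as references without a read number. The windows carry gene names by the way they were chosen. No mm9 gene annotation was used here, so no start site was placed inside them.

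The cells were MIN6, a line grown from a mouse insulinoma that arose in a transgenic animal and often taken to stand for pancreatic beta cells, here in regular culture. Both libraries came from cells fixed in 1% formaldehyde for 10 min, and their labels differ in the precipitation. The ChIP library was made from chromatin precipitated with an antibody against CtBP2, and the input from chromatin without precipitation. With 1 library per group there is no replicate check, so every comparison sets the reads of these libraries side by side and no p-value is given. A control IgG library was not analysed here. The libraries hold DNA and not RNA, so the beta cell label was not checked against marker genes. The ChIP library held 34890624 aligned reads and the input 20896067. Keeping 1 read per chromosome, 5 prime end and strand left 8474671 and 12471942 distinct reads on the main nuclear chromosomes. The libraries thus also differ in repeated reads, with 4.117 aligned reads per distinct read in ChIP and 1.671 in the input. Intervals are 95% intervals that cover counting error only.

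Each of the 5 genes is widely expressed. Brd2 encodes a BET protein whose bromodomains bind acetylated histones. Ubtf encodes UBF, an HMG-box protein that binds ribosomal DNA and works with RNA polymerase I, and Zbtb1 encodes a zinc finger protein with a BTB domain that is needed for lymphoid development. Actb encodes cytoplasmic beta-actin and Gapdh a glycolytic enzyme, and both are common reference genes. CtBP proteins have a cleft that holds short peptide motifs of partner proteins, and zinc finger factors such as those of the ZEB and KLF families bring them to DNA.

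RefSeq promoters of 4 of the 5 genes are shown so that the base composition and letters near these genes can be read beside the signal. They run from 250 bases before to 50 after an annotated start, belong to build GRCm38.p6 and were not placed on the mm9 read positions. Zbtb1 and Gapdh have 1 start each in the table, Brd2 has 3 starts within 2707 bp and Ubtf has 6 within 4157 bp. The most upstream start is shown for Brd2, the start with the most CpG for Ubtf, and Actb is named only. Capitals mark a match on either strand to any of 8 motifs. The E-box of ZEB factors was searched as CACCTG and the site of KLF factors as CCACCC. The GC box was searched as GGGCGG, the box of the NF-Y complex as CCAAT and the TATA box as TATAAA. The core of sites for ETS factors was searched as CCGGAA, part of the site of the NRF1 factor as TGCGCA and the CRE, to which CREB proteins bind, as TGACGTCA.
Brd2, chr17:34122558-34122857, minus strand: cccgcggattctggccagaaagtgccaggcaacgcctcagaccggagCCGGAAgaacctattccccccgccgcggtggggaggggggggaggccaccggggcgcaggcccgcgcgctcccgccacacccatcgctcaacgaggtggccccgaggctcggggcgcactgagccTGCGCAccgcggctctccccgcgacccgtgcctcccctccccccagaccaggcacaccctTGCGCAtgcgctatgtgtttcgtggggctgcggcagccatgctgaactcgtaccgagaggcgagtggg
Ubtf, chr11:102317238-102317537, minus strand: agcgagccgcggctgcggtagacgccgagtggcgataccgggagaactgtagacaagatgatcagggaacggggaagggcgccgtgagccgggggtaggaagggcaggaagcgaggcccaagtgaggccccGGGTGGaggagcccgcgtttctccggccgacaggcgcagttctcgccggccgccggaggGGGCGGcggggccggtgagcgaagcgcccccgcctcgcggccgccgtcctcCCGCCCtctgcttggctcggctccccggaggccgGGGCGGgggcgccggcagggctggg
Zbtb1, chr12:76370270-76370569, plus strand: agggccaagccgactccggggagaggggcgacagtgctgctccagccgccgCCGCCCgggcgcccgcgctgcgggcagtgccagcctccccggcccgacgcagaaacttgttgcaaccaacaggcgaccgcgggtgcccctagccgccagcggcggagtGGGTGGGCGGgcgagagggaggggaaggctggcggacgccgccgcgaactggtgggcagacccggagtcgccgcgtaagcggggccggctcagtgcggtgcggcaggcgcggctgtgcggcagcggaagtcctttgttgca
Gapdh, chr6:125165724-125166023, minus strand: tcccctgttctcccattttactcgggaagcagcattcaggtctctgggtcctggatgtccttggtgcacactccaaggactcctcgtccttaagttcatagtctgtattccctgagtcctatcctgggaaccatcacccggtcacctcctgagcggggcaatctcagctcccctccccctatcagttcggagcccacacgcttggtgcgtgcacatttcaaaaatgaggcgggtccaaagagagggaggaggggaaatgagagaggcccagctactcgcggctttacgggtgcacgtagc

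CpG number differed between the starts of a gene. The Zbtb1 promoter held 39 CpG in 300 bases and the Gapdh promoter 12, beside a median of 7 (quartiles 3 and 20) over 32851 RefSeq promoters of that length. From the most upstream start downward, the Brd2 promoters held 32, 14 and 24 CpG and the Ubtf promoters 6, 11, 27, 39, 40 and 31. The Ubtf sequence shown was picked for its CpG, so its CpG and motif numbers are no comparison with other genes. In the same order, the Ubtf promoters held 0, 1, 2, 8, 3 and 4 GC boxes, and CCACCC only in the fifth and sixth. The GC box was found 3 times in the Ubtf sequence and 2 times in the Zbtb1 sequence, and 35.7% of all promoters held it. In Zbtb1, 1 GC box overlaps the KLF match. CCACCC was found once each in Ubtf and Zbtb1 (31.5% of all promoters). The Brd2 sequence shown held 2 matches to TGCGCA (7.76% of all promoters) and 1 to CCGGAA (14.9%). CACCTG (20.2%), CCAAT (37.4%), TATAAA (13.6%) and TGACGTCA (1.79%) had no match in these 4 sequences, and Gapdh had no match to any of the 8. Starts that are not shown did hold some of them: CACCTG was found in the second Brd2 and the third Ubtf promoter and CCAAT in the first Ubtf promoter. A match describes letters in the window and not an occupied site.

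The ChIP signal of each window lay in 1 or more short blocks, with few reads between them. A 200 bp step was called when it held at least 10 distinct ChIP reads and at least 3 times the scaled input reads of the same step, with input scaled by the ratio of distinct library totals, 0.6795. By that rule 71 of the 564 window steps with a read (12.6%) were called, against 0.862% of the genome steps with a read. The windows of Brd2, Ubtf and Zbtb1 were chosen on ChIP reads, so their share says nothing further. They held 21, 25 and 12 called steps, the Actb window held 9 among 90 steps with a read (10%) and the Gapdh window 4 among 99 (4.04%). Steps without a single distinct ChIP read numbered 99 of 150 at Brd2, 132 of 200 at Ubtf, 126 of 175 at Zbtb1, 113 of 150 at Actb and 95 of 150 at Gapdh.

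**Figure D1:**
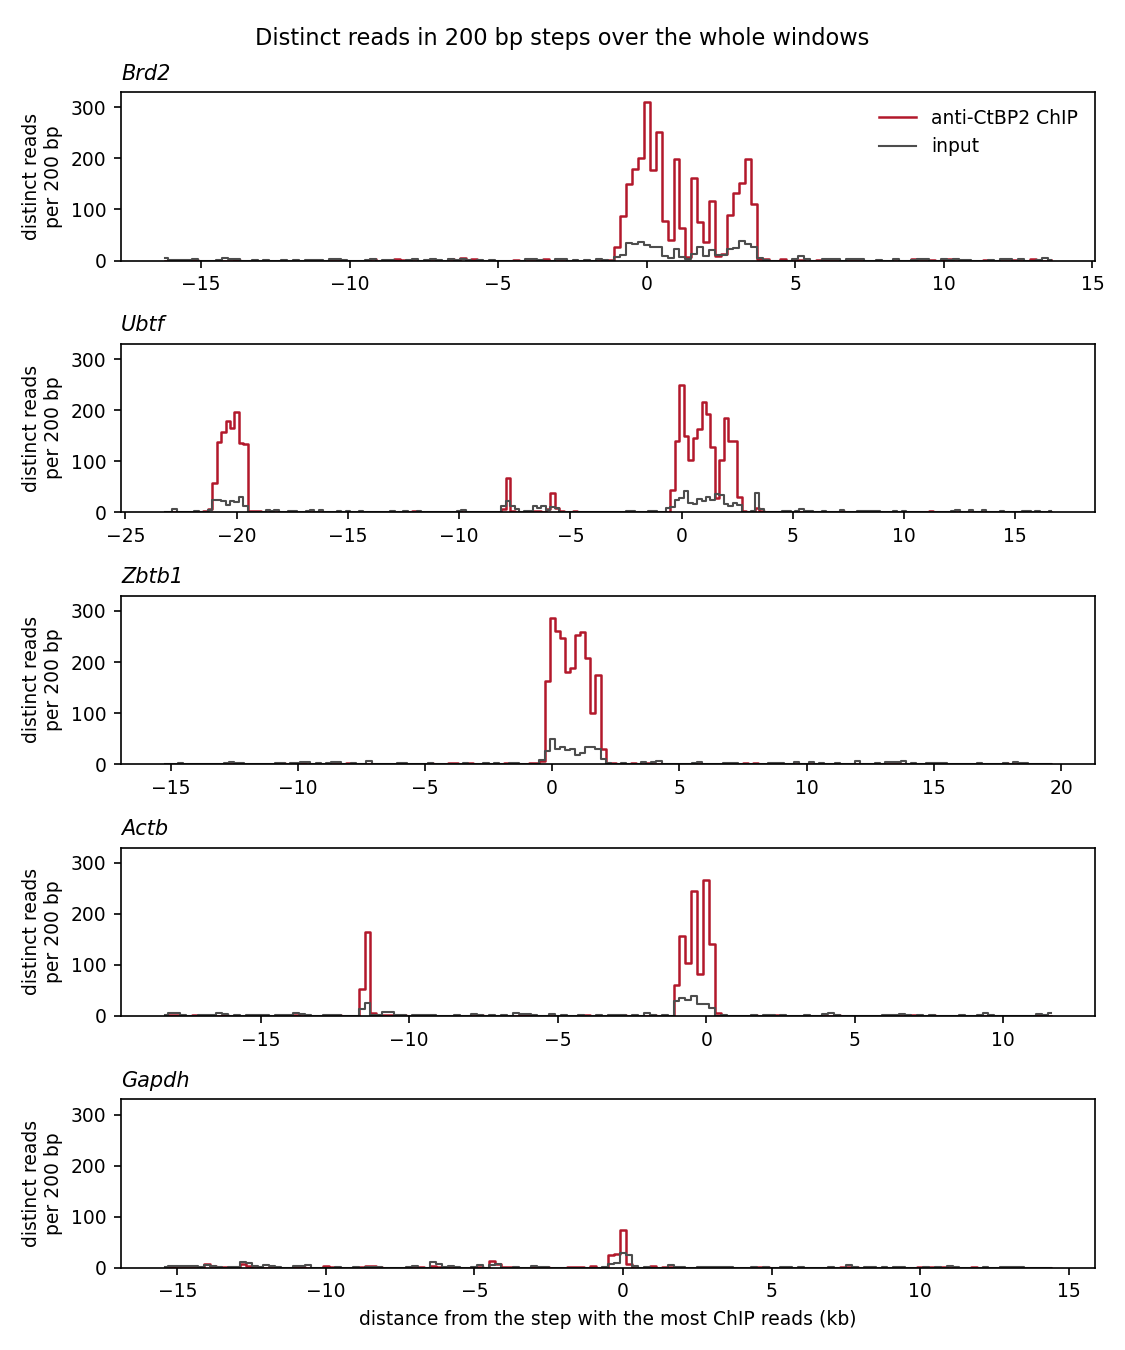
Distinct reads per 200 bp step (vertical axis) against distance in kb from the step with the most ChIP reads (horizontal axis, its range set by each window) for the anti-CtBP2 ChIP library (red) and the input (grey). Each window is nearly empty outside its blocks, Ubtf has another block about 20.3 kb to the left and Actb another site 11.5 kb to the left.

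At Zbtb1 nearly all ChIP reads of the window lay in 1 block. The block around the deepest step, called the core here, is the unbroken run of steps with at least 10% of the reads of that step. At Zbtb1 it ran over 2400 bp of mm9 at chr12:77470001-77472400 and held 2350 ChIP and 341 input reads. This was 97.4% of all ChIP reads in the 35 kb window and 58.9% of its input reads. The deepest step held 286 ChIP reads, and the steps after it held 261, 247, 181 and 188. A further rise 1000 to 1200 bp from the deepest step held 252 and 259. Input over the same core lay between 11 and 50 reads per step, highest in the step where ChIP was highest. The ChIP to scaled input ratio of single steps ran from 4.01 (interval 1.96 to 8.88) at the last step to 21.8 (13.4 to 38) at the step 1000 bp from the deepest, where input was only 17 reads.

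At Brd2 the signal was broken into a core and further blocks. The core lay at chr17:34255401-34257600, was 2200 bp wide and held 1735 ChIP and 240 input reads. Its deepest step, at chr17:34256201-34256400, held 310 ChIP reads, the highest value in the 5 windows, and 31 input reads. A single step with 7 ChIP and 3 input reads ended the core. Beyond it lay a block of 800 bp at chr17:34257801-34258600 with 389 ChIP and 70 input reads. After a gap of 400 bp with 9 and 12 ChIP reads per step came a block of 1000 bp at chr17:34259001-34260000 with 684 ChIP and 145 input reads. The step before the core was called too, with 27 ChIP and 7 input reads, so called steps at Brd2 reached from 34255201 to 34260000 with these gaps, and the core held only 59.7% of the ChIP reads of the window. The ratio was 8.18 (6.33 to 10.7) in the middle block and 6.94 (5.80 to 8.36) in the last, against 10.6 (9.29 to 12.2) in the core. The interval of the last block lies below that of the core, and that of the middle block overlaps both.

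At the main setting the Ubtf core was the widest of the 5 and, per kb, the least deep of the chosen 3. The order by width depended on the setting. With all deposited reads the Ubtf core was chr11:102177801-102179800, narrower than the Zbtb1 core at chr12:77470001-77472200. At the 50% limit it was chr11:102178001-102178600, again narrower than Zbtb1 at chr12:77470001-77471800. Without the shift of read ends the Brd2 core was the widest. The main Ubtf core ran over 3200 bp at chr11:102177801-102181000 with 2154 ChIP and 374 input reads. ChIP reads rose 3 times along it, to 249 at the deepest step, 216 at 1000 bp and 184 at 2000 bp. The step 1600 bp from the deepest held 29 ChIP and 35 input reads, a ratio of 1.22 (0.719 to 2.05), and the steps on both sides were called. Input did not dip where ChIP did: that step held more input reads than the deepest step, which had 29. Another input-rich step at chr11:102181601-102181800, outside the core, held 37 input and 9 ChIP reads, a ratio of 0.358 (0.152 to 0.755).

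**Figure D2:**
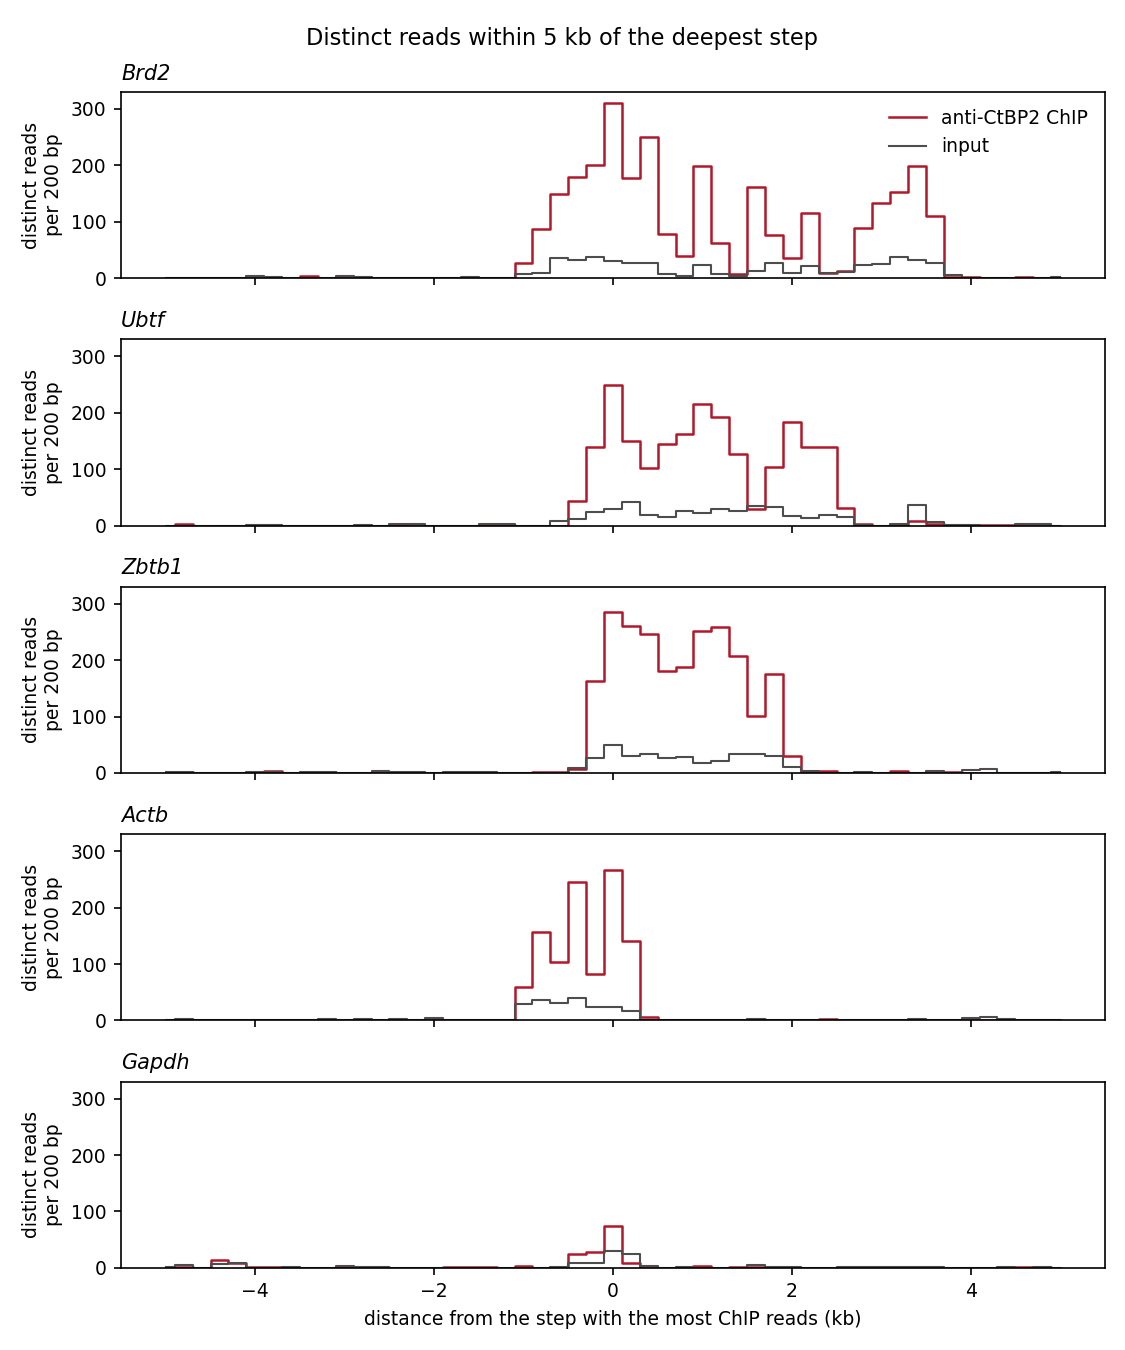
Distinct reads per 200 bp step (vertical axis) within 5 kb of the deepest step (horizontal axis, kb) for ChIP (red) and input (grey). Brd2 shows a core and separate blocks to its right, Ubtf 3 rises, Zbtb1 an unbroken block, Actb a narrower block with a dip beside the deepest step, and Gapdh a low peak of 74 ChIP reads.

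The Ubtf window also held a distant block of like depth. It lay at chr11:102157201-102158800, centred 20.3 kb below the deepest step of the core in coordinate, and was 1600 bp wide with 1161 ChIP and 172 input reads. Its ratio of 9.93 (8.46 to 11.7) overlaps that of the core, 8.48 (7.59 to 9.48). Single called steps stood between them, 1 with 67 ChIP and 23 input reads and 1 with 37 and 11. In RefSeq order the protein-coding neighbours of Ubtf are Gm33851 and Atxn7l3 on the lower side and Slc4a1 and Rundc3a on the upper. The distant block was not assigned to any of them.

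Actb was as dense as the promoters chosen for depth, and its block was narrower. The core at chr5:143667201-143668600 was 1400 bp wide with 1055 ChIP and 198 input reads, or 754 ChIP reads per kb (709 to 800). Brd2 had 789 per kb (752 to 827), Ubtf 673 (645 to 702) and Zbtb1 979 (940 to 1020), so the interval of Actb overlaps that of Brd2, lies above that of Ubtf and below that of Zbtb1. Its deepest step held 267 ChIP and 23 input reads, more ChIP reads than the deepest step of Ubtf. Between the deepest step and another with 245 reads, a step held 82. A separate site 11.5 kb lower in coordinate, at chr5:143656601-143657000, held 217 ChIP and 38 input reads over 400 bp. It was found after its values were seen, since it is shorter than the 3 steps asked of a named block, and its ratio was 8.40 (5.93 to 12.2).

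Gapdh carried little signal. Its core at chr6:125115001-125115800 was 800 bp wide with 135 ChIP and 72 input reads, or 169 ChIP reads per kb (141 to 200). The deepest step held 74 ChIP and 30 input reads. The step after it held 8 ChIP and 25 input reads, a ratio of 0.471 (0.184 to 1.08), so input stayed high for 1 step beyond ChIP. The interval of ChIP density at Gapdh lies below those of the other 4 promoters, while its input density of 90.0 per kb (70.4 to 113) overlaps those of Brd2 and Ubtf. Both reference promoters thus stood far apart in ChIP, at 1055 and 135 core reads.

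Input was raised at every one of the 5 promoters. Input reads took no part in choosing the windows. Flanks were the steps more than 1 kb from any step with at least 10 ChIP reads, 23.2 to 30.6 kb per window. At Zbtb1, input was 142 reads per kb in the core (127 to 158) and 7.32 in the flanks (6.39 to 8.34), 19.4 times higher. At Brd2 the values were 109 (95.7 to 124) and 5.30 (4.41 to 6.33), 20.6 times. Core input was 19.6 times the flanks at Ubtf, 24.1 times at Actb and 12.9 times at Gapdh, and the intervals of core and flanks were apart at each promoter. The core was placed by ChIP reads and not by input. Median input per core step was 17 at Gapdh and 23.5 to 29.5 at the other promoters. Genome steps with 20 to 49 ChIP reads had a median input of 11, those with 100 to 149 had 22 and those with 250 to 299 had 27. Of the 49 core steps with at least 10 ChIP reads, 3 lay above the 95th percentile of input in their depth class and 1 below the 5th. Raised input was thus not particular to these promoters. Of 50 window steps with at least 20 input reads, a limit chosen after the values were seen, 47 were called in ChIP. Of these 50, 41 lay in the windows chosen for ChIP depth, which fixes a high share there, and the Actb and Gapdh windows had 8 called of 9. In the genome 72.3% of 26978 such steps were called. The 3 window steps with at least 20 input reads that were not called were the 2 steps named at Ubtf and the 1 at Gapdh.

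ChIP reads in the flanks were sparser than input. ChIP density there was 1.55 reads per kb at Brd2 (1.09 to 2.15), 0.963 at Ubtf (0.629 to 1.41), 1.57 at Zbtb1 (1.16 to 2.08), 1.2 at Actb (0.803 to 1.72) and 2.94 at Gapdh (2.31 to 3.69). The flanks of Gapdh were the densest, with an interval above those of the other 4 windows. Flanks were defined by few ChIP reads, which lowers these values. The ratio to scaled input was 0.238 to 0.619 across the 5 flanks, beside 0.321 in the background bins of the genome, which were also chosen for few ChIP reads. Core density in ChIP was 508 times that of the flanks at Brd2, 699 at Ubtf, 624 at Zbtb1, 629 at Actb and 57.5 at Gapdh.

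**Figure D3:**
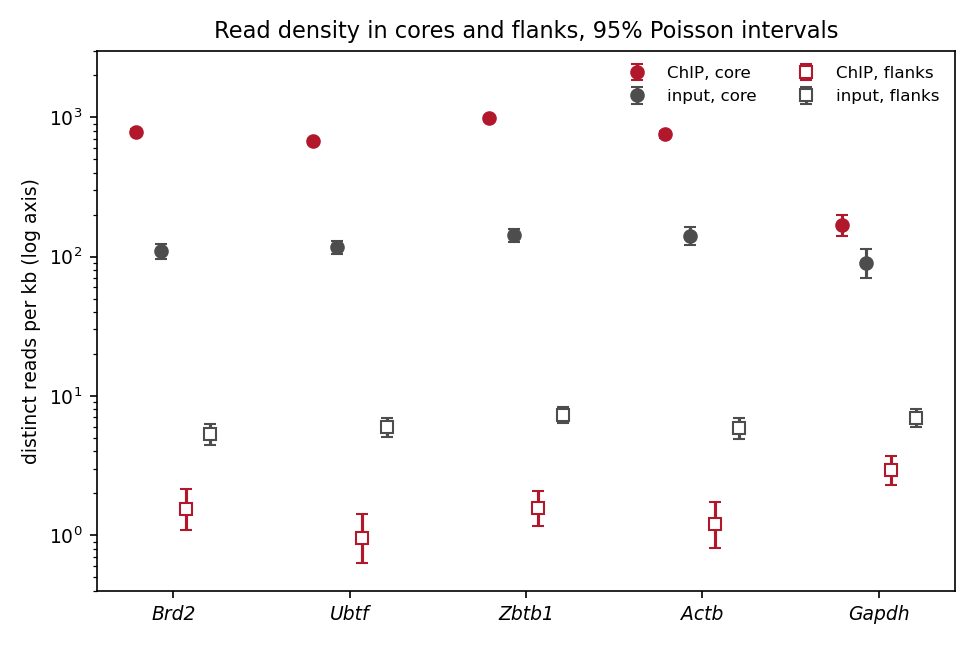
Distinct reads per kb (log axis) in the core (filled circles) and flanks (open squares) of each promoter for ChIP (red) and input (grey), with 95% Poisson intervals, some smaller than the symbol. Input in the cores lies between 90 and 142 reads per kb at all 5 promoters, while core ChIP is 673 to 979 at 4 of them and 169 at Gapdh.

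Set against input, the deepest promoters were less extreme than by depth, which can follow from choosing them by depth. The core ratio was 10.6 (9.29 to 12.2) at Brd2, 10.1 (9.05 to 11.4) at Zbtb1, 8.48 (7.59 to 9.48) at Ubtf, 7.84 (6.73 to 9.17) at Actb and 2.76 (2.06 to 3.73) at Gapdh. Of the 10 pairs of promoters, 8 had an interval of the quotient of their ratios without 1. The other 2 were Brd2 over Zbtb1, 1.05 (0.879 to 1.25), and Ubtf over Actb, 1.08 (0.896 to 1.30). Brd2, Ubtf and Zbtb1 were picked for many ChIP reads, which favours them against the references. The number of intervals without 1 is thus a description and not a test. The value at Actb depended on the core limit: steps with at least 50% of the deepest step, 400 bp in all, gave 15.4 (11.1 to 22). At that limit Actb was the highest of the 5, above Zbtb1 at 11.3 (9.91 to 12.8), Brd2 at 10.8 (9.07 to 12.8) and Ubtf at 8.42 (6.75 to 10.6), so the order of Actb against Brd2 and Zbtb1 turned and the intervals of Actb and Ubtf were apart. At Gapdh it was 1.66 with all deposited reads, where none of its steps was called, and 4.28 with 100 bp steps. At the main setting Actb was 2.84 times Gapdh (2.06 to 3.93), a pair in which neither was chosen by depth. That quotient depended on the setting. Actb and Gapdh had 8.04 and 4.28 with 100 bp steps, 15.4 and 3.63 at the 50% limit, and 7.65 and 1.66 with all deposited reads. Scaling on background bins with few ChIP reads, where the ratio of distinct reads was 0.2180, lifted all 5 values by one factor, to 33.2 at Brd2, 31.6 at Zbtb1, 26.4 at Ubtf, 24.4 at Actb and 8.60 at Gapdh.

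**Figure D4:**
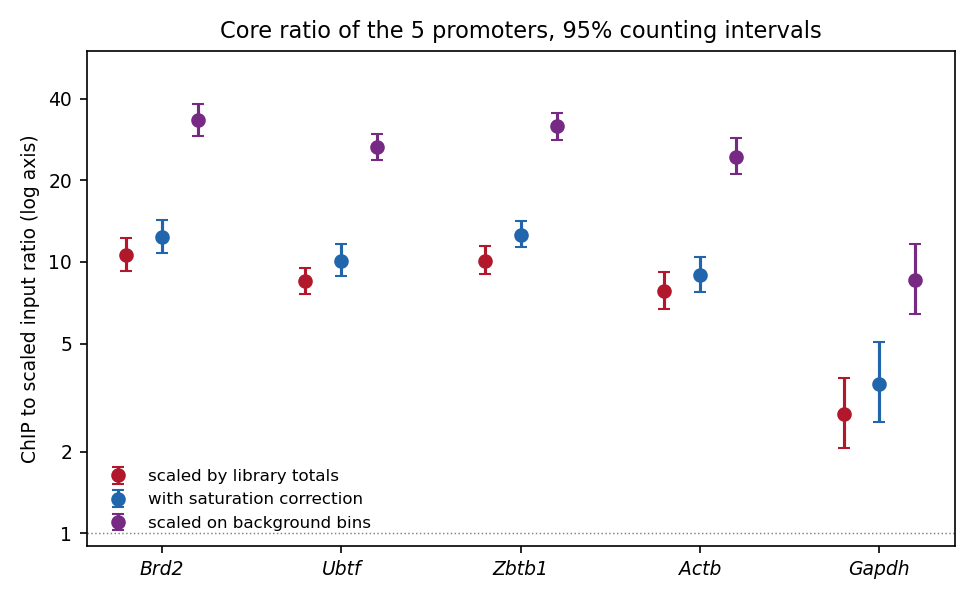
ChIP to scaled input ratio of the core (log axis) for each promoter, with 95% exact counting intervals, under scaling by library totals (red), the same with a correction for filled positions (blue) and scaling on background bins (purple). Gapdh lies lowest in all 3, and the height of all points depends on the scaling.

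Ranked over the genome, depth and ratio placed these promoters differently. Brd2, Ubtf and Zbtb1 were picked for ChIP reads, so their high places by reads restate the choice. A lower place by another measure can follow from that choice. Called steps were joined into 21515 runs over the genome, across at most 1 uncalled step, with a median of 109 ChIP reads (quartiles 33 and 366), a median width of 400 bp and a median ratio of 6.11. By ChIP reads Zbtb1 was run 1 with 2350, Brd2 run 2 with 2158 over 3400 bp and Ubtf run 3 with 2154. The next, outside the chosen 3, was at chr8:11007001-11010000 with 2147 ChIP and 360 input reads, and its ratio of 8.78 was above that of Ubtf. By ratio the Zbtb1 run was at rank 3372, the Brd2 run at 3664 and the Ubtf run at 6034, and 84.3%, 83% and 72% of runs had a lower ratio. By width they were at rank 41, 4 and 6. Ranks by ratio set deep runs beside runs with few reads, whose ratios have wide counting error. Distinct reads per step have an upper limit, described below, and its effect on these ranks was not tested. With all deposited reads, which have no such limit, the core ratio was 11.8 at Brd2, 10.4 at Zbtb1, 8.24 at Ubtf, 7.65 at Actb and 1.66 at Gapdh. Actb was run 285 by reads and 7257 by ratio. Its neighbours in reads, at chr3:68297401-68299400 with 1055 and chr10:107768801-107770600 with 1054 ChIP reads, were wider, at 2000 and 1800 bp, and had ratios of 7.03 and 8.81. Gapdh was run 10116 by reads, with 52.94% of runs below it, and only 17.1% of runs had a lower ratio than its 3.98.

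The number of distinct reads in a step has an upper limit, and the deepest promoters came near it. A step of 200 bp offers 400 positions over both strands, and the ChIP reads filled 77.5% of them in the deepest Brd2 step, 71.5% at Zbtb1, 66.8% at Actb, 62.2% at Ubtf and 18.5% at Gapdh. Over whole cores the share was 49.0% at Zbtb1, 39.4% at Brd2, 37.7% at Actb, 33.7% at Ubtf and 8.44% at Gapdh, while input filled 4.50% to 7.10%. Steps with at least 200 distinct ChIP reads numbered 13 in the 5 windows, 6 of them at Zbtb1, 3 at Brd2, 2 at Ubtf and 2 at Actb. The genome held 6302, or 0.0939% of steps with a read, and 344 steps of the genome had more than the 310 of Brd2. For the deepest step of Zbtb1 that number was 765, for Actb 1418, for Ubtf 2367 and for Gapdh 25167.

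Deposited reads piled up further where positions were filled. The deepest Brd2 step held 1679 deposited reads, 5.42 for each occupied position and strand. The values were 4.01 at the deepest step of Actb, 3.94 at Zbtb1, 3.24 at Ubtf and 1.91 at Gapdh. Over whole cores, ChIP had 3.32 at Brd2, 3.12 at Actb, 3.01 at Zbtb1, 2.54 at Ubtf and 1.81 at Gapdh, and input 1.18 to 1.30. No single position carried a core: the most reads at 1 position and strand were 25 at Actb, 24 at Brd2, 22 at Zbtb1, 17 at Ubtf and 6 at Gapdh. Genome steps of like depth had like values, with a median of 3.62 for 250 to 299 distinct reads and of 2.71 for 150 to 199. The class of 300 to 400, which holds the deepest Brd2 step, had a median of 5.18. Its 95th percentile was 254, so a place below that says little about this step. Of the 49 core steps with at least 10 ChIP reads, 1 step, at Actb, lay above the 95th percentile of its depth class and 1, at Zbtb1, below the 5th. The Actb step, next to the deepest, held 564 deposited reads at 141 distinct positions, or 4 per position. Replacing each count by the number of reads that random placement would need to fill as many positions raised the ratio to 12.4 at Brd2 (10.8 to 14.3), 12.6 at Zbtb1, 10.1 at Ubtf, 8.95 at Actb and 3.55 at Gapdh. The core limits were set again on the corrected counts. With that correction the values of Brd2 and Zbtb1 changed order, and their intervals overlapped with and without it.

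**Figure D5:**
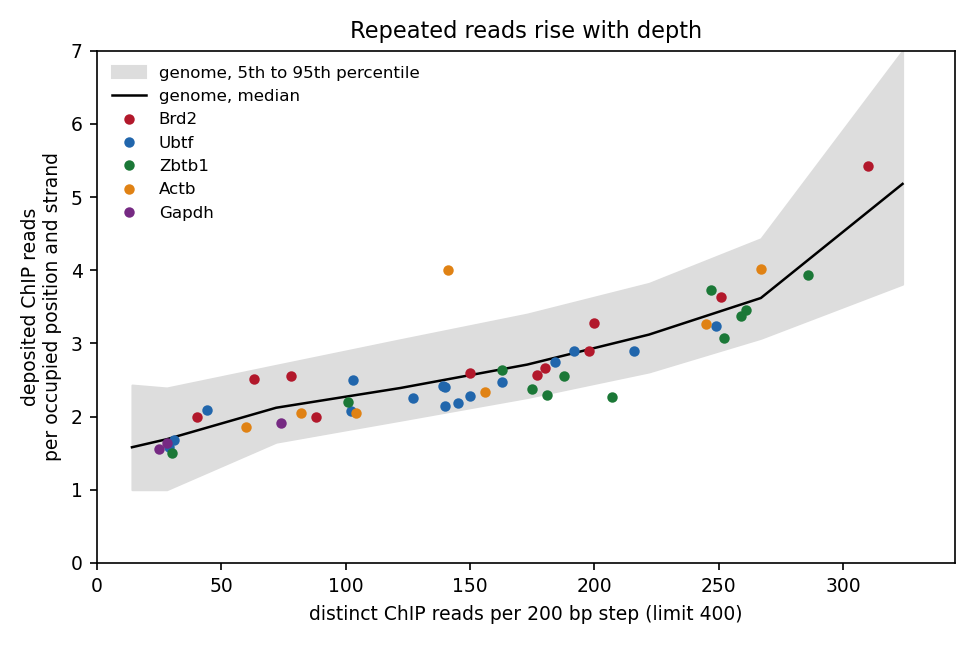
Deposited ChIP reads per occupied position and strand (vertical axis) against distinct ChIP reads per 200 bp step (horizontal axis) for the core steps of the 5 promoters with at least 10 ChIP reads (points), beside the median (line) and 5th to 95th percentile (band, drawn only up to 7) of genome steps in 8 depth classes. Member steps follow the genome line, and the Actb point at 141 reads stands above the band. In the deepest class the 95th percentile is 254, beyond the axis.

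Reads of both strands were near evenly present at the promoters. Plus-strand reads made up 48.9% to 51.2% of distinct ChIP reads in the 5 cores and 48.3% to 51.3% of input reads. Strand offsets were taken from unshifted 5 prime ends in each core and 112 bp on either side. In the ChIP library minus-strand ends lay on average 199 bp beyond plus-strand ends at Brd2, 230 at Zbtb1, 237 at Ubtf, 247 at Actb and 287 at Gapdh. The Gapdh core held only 135 ChIP reads, and the fragment length of the whole library was 225 bp. Input offsets were 175, 202, 186, 228 and 207 bp in that order, beside 205 bp, so an offset was not particular to ChIP. Along the cores, ChIP and input reads per step moved together at Brd2 (Pearson's r 0.79, Spearman's rho 0.69, 11 steps) and less so at Zbtb1 (0.48 and 0.29, 12 steps), Gapdh (0.47 and 0.40, 4 steps), Ubtf (0.18 and 0.20, 16 steps) and Actb (0.17 and 0.11, 7 steps). Adjoining steps share fragments, base composition and library, so these values are a description of 1 pair of libraries.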

How the data were processed

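The deposited files hold aligned reads of 1 anti-CtBP2 ChIP and 1 input library, 1 line per read with start, end and strand in bp on mm9. The score column of the deposited files is 0 on every line. The submitters' processing notes name BWA, SAMtools 0.1.19, bedtools 2.17.0 and mm9, while filters are not given in the sources used here. The files keep repeated reads. Members and lists were chosen with earlier results of these data known.

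In both libraries 1 read per chromosome, 5 prime end and strand was kept on 21 chromosomes, which limits a 200 bp step to 400 reads. Ends were moved 112 bp inward, from the ChIP fragment length of 225 bp found by strand cross-correlation (input 205 bp). Steps were called by fold and read number, with no test. Ratios have exact conditional intervals and densities Poisson intervals. Reads from amplified libraries are not independent molecules. Described were the deepest step, the core, each other run of at least 3 called steps and the runs next in rank. Scripts used Python 3.11.15, NumPy 2.4.6, SciPy 1.17.1, pandas 2.3.3 and matplotlib 3.10.9 and were tested on simulated data. Promoter sequences came from RefSeq, GRCm38.p6, which matched 4 of 5 members. Alternatives were all deposited reads, background-bin scaling, no shift, a correction for filled positions, other core limits, 100 bp steps and other call limits.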

Additional observations from a re-analysis of the deposited data

How the results depend on the processing

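No paired analysis was possible because a single library stands for each group. Of 35 alternative core ratios, 24 stayed within the counting interval of the reported value and 11 left it. Background-bin scaling gave 33.2 at Brd2, 26.4 at Ubtf, 31.6 at Zbtb1, 24.4 at Actb and 8.6 at Gapdh. The correction for filled positions gave 12.4 at Brd2, 10.1 at Ubtf and 12.6 at Zbtb1. A core limit of 50% gave 15.4 at Actb, then the highest of the 5. All deposited reads gave 1.66 and 100 bp steps 4.28 at Gapdh, whose core rests on 135 ChIP and 72 input reads. Bridging 1 step under the limit, chosen after seeing the data, left all 5 ratios within their intervals. Of 12 alternative counts of called steps, 11 stayed within 1.5 times the reported 57864 in the genome or 71 in the windows. A limit of 5 times scaled input gave 38123 in the genome and 57 in the windows, 0 of them at Gapdh, by fold and read number with no test.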
